A study of Mus musculus with 8 samples.

Results

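A set of 9 genes of fat cells and lipid droplets was followed through the hearts of mice with and without a Pkp2 mutation: Adipoq, Cfd, Cidec, Plin1, Lpl, Fabp4, Pparg, Cebpa and Klf15. They were taken as a named list, and all 9 were found by Ensembl identifier among the 38293 genes of the count table. The tissue was ventricle, left and right mixed, from mice aged 8 weeks. HET were 4 samples heterozygous for a deletion at coding position 1755 of Pkp2, and WT were 4 samples with both alleles intact. The series title gives the HET genotype as PKP2 c.1755delA/WT, while the genotype label omits the word for the deletion. The name of the deposited counts says delC, so the sources disagree on the deleted base. The labels do not say how the allele was made, how many founder lines it came from or whether each sample was a separate animal, so p-values measure the spread between these samples, which may be technical. Plakophilin-2 is a protein of the desmosome, and the series is about degradation of desmosomal proteins in arrhythmogenic cardiomyopathy, a heart muscle disease in which fat and scar can replace muscle in patients.

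White fat cells store triglyceride in a single large droplet. The droplet is coated by perilipin 1 (Plin1) and enlarged by the fusion protein CIDEC, and the cells secrete adiponectin (Adipoq) and adipsin (Cfd). Their identity is set by the nuclear receptor PPARγ (Pparg) together with C/EBPα (Cebpa), with KLF15 among the later factors of the programme. Heart muscle burns fatty acids rather than storing them, and for this it uses some of the same proteins: lipoprotein lipase (Lpl), which frees fatty acids from circulating triglyceride, is made by cardiomyocytes, FABP4 is abundant in capillary endothelium, and KLF15 is a cardiomyocyte regulator of metabolism under glucocorticoid and circadian control.

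Total counts were 32397302 to 38611008 in HET libraries and 38510257 to 41234883 in WT libraries. Pkp2 checked the labels: it stood at 88.2 to 105.6 CPM (counts scaled to equal library totals, on TMM-scaled library sizes) in HET and at 148.5 to 169.1 CPM in WT (log2 fold change -0.74, edgeR quasi-likelihood fit, adjusted p = 0.00376 after Benjamini-Hochberg). It was the 1 gene called among 14567 tested, which is 0.00686% in either direction and 0% for higher in HET. Cardiomyocyte genes were abundant in every library, and the atrial genes Sln and Myl7 had 0 to 4 counts, while the atrial list as a whole summed to 239.8 to 479.1 CPM in HET and 287.8 to 377.4 CPM in WT, mostly from Nppa. Of the 9 genes, 8 passed the filter on low counts and Plin1 did not. None of the 8 was called, 0 higher and 0 lower, and 3 had an unadjusted p under 0.05 (6.38% of all genes tested did). Limma-voom also called 0 of the 8, with 2 at unadjusted p under 0.05. DESeq2 called 0 of the 6 to which it gave an adjusted p, with 3 of the 8 at unadjusted p under 0.05, and gave none to Adipoq and Cidec. The edgeR count at unadjusted p under 0.05 depended on the setting. With digits of the sample titles, of unstated meaning, as covariate it was 0 of the 8 (563 of 14567 genes tested). It was 1 of 8 without HET replicate 3 (531 of 14736 genes) and 5 of 9 without HET replicate 4 (711 of 14748 genes). The groups overlapped for all 9 genes, while they did not overlap for 3.78% of the genes tested. Of the 8 tested, 7 had positive log2 fold changes (48.5% of all genes tested) and the median of the 8 was 0.18, against -0.0038 over all genes tested.

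The level per transcript length split the list in a way its name does not show. Levels between genes are given as TPM (counts per transcript length, scaled to equal totals, computed from the counts with the longest coding transcript of each gene). Lpl averaged 2575 TPM over the 8 libraries (range 2192 to 2869), Fabp4 905 TPM (753 to 1075), Klf15 40.6 TPM (33.3 to 49.5), Pparg 10.3 TPM (9.08 to 11.2) and Cebpa 4.21 TPM (3.62 to 5.57). Cfd averaged 3.30 TPM (0.430 to 9.14), Adipoq 0.434 TPM (0.0759 to 1.20), Cidec 0.412 TPM (0.0570 to 1.40) and Plin1 0.198 TPM (0.0348 to 0.462). In this order each of the first 4 genes stood clear of the next in every library, while Cebpa overlapped Cfd, Cfd overlapped Adipoq, Adipoq overlapped Cidec and Cidec overlapped Plin1. Cfd, Adipoq, Cidec and Plin1 are largely restricted to fat (the fat-restricted genes below) and were at trace level here, while the other 5 are also used by other cells of the heart. The 5 had coefficients of variation under 16% over the 8 libraries (7.88% for Pparg to 14.9% for Klf15) and the 4 had coefficients over 80% (83.3% for Plin1 to 109.6% for Cidec). Counting error enters the coefficients of the 4 more, since Adipoq, Cidec and Plin1 had only 2 to 45 counts per library. Its part was not tested. In whole tissue, fewer cells of a type and less RNA per cell cannot be told apart.

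RefSeq start-site windows (GRCm38.p6, 250 bases before to 50 after the start) were matched for 7 of the 9 genes. Those of the 4 fat-restricted genes are printed because these genes differed most between libraries, 5′ to 3′ on the gene's strand. Capitals mark matches, on either strand, to the CCAAT box (CCAAT), the TATA box (TATAAA), a nuclear receptor core (AGGTCA), the paired PPAR-RXR site (AGGTCANAGGTCA) or a C/EBP core (TTGCNNAA). RefSeq has 2 windows for Cidec, of which the one with a match is shown.
Adipoq, chr16:23146286-23146585, plus strand: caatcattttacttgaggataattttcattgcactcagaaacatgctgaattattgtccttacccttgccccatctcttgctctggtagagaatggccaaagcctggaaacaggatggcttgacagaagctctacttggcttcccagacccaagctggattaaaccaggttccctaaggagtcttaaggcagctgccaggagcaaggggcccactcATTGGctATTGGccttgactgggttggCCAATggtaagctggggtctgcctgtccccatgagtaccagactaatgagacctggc
Cfd, chr10:79890603-79890902, plus strand: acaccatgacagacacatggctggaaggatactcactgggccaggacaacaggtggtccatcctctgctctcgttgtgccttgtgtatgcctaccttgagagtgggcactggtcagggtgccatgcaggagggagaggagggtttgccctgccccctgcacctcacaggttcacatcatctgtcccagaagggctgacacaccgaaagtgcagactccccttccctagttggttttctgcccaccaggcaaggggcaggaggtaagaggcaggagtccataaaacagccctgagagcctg
Cidec, chr6:113434715-113435014, minus strand: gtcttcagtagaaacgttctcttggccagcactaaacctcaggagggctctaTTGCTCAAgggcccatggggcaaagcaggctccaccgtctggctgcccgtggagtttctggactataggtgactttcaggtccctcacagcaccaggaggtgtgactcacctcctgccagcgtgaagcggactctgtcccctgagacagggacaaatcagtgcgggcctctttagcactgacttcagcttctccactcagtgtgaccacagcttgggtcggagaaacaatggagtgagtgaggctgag
Plin1, chr7:79732727-79733026, minus strand: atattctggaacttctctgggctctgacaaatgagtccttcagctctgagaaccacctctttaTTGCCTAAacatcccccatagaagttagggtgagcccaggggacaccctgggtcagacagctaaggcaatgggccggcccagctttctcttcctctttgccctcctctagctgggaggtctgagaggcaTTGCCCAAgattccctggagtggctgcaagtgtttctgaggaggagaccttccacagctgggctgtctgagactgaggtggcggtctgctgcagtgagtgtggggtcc
Adipoq holds 3 CCAAT boxes, the first of them at position 217 of its window, and no other match. Plin1 holds 2 C/EBP cores (positions 64 and 193) and Cidec 1 (position 53), while the Cfd window holds none of the 5 motifs. Among 32851 such windows of the genome 37.4% hold a CCAAT box, 13.6% a TATA box, 16.3% a nuclear receptor core, 10.8% a C/EBP core and 0.0396% the paired site. A match is a description of letters, not a binding site.

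Adiponectin and adipsin, the secreted products of fat cells, were detected at trace level, and 2 of the 4 HET libraries held most of the reads. Adipoq (ENSMUSG00000022878; chromosome 16, 23146536 to 23158028, plus strand, GRCm38, 4 exonic blocks) had 19, 10, 29 and 3 counts in HET replicates 1 to 4 and 2, 6, 11 and 4 counts in WT replicates 1 to 4. In scaled units that was 0.504, 0.312, 0.773 and 0.0842 CPM in HET, against 0.0481, 0.151, 0.266 and 0.102 CPM in WT. HET replicates 3, 1 and 2 stood above every WT library and HET replicate 4 stood below 3 of the 4 WT libraries. The spread inside HET was larger than counting error, since the exact 95% Poisson interval was 19.4 to 41.7 counts for HET replicate 3 and 0.619 to 8.77 for HET replicate 4. Means were 0.418 ± 0.292 CPM in HET and 0.142 ± 0.093 CPM in WT (SD, n = 4 each), with a log2 fold change of 1.55 (SE 0.628, 95% interval 0.16 to 2.94) and an edgeR-adjusted p of 0.770. Adipoq lies 6873824 bases from Pkp2 on the same chromosome.

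Cfd (ENSMUSG00000061780; chromosome 10, 79890853 to 79892655, plus strand), the most abundant of the fat-restricted genes, showed the division of HET most clearly. It had 141, 35, 158 and 7 counts in HET, or 3.74, 1.09, 4.21 and 0.197 CPM, and 16, 31, 35 and 38 counts in WT, or 0.385, 0.780, 0.846 and 0.973 CPM. HET replicates 1 and 3 stood far above all WT libraries, HET replicate 2 just above them, and HET replicate 4 below all of them. The log2 fold change was 1.64 (SE 0.805, 95% interval -0.25 to 3.53; edgeR, adjusted p = 0.770), and by limma-voom with sample weights it was 0.71. It ran from 1.18 to 2.03 when single libraries were left out, and was -0.23 without HET replicates 1 and 3, the 2 highest libraries, which were picked for that.

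**Figure D1:**
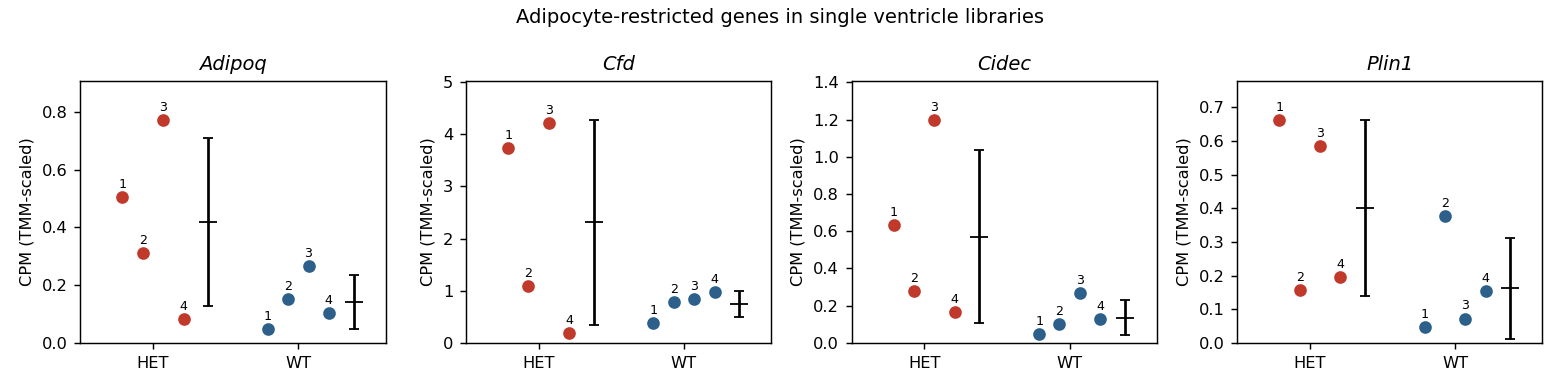
CPM of Adipoq, Cfd, Cidec and Plin1 in each ventricle library, HET left and WT right, numbered by replicate, with mean and SD as the black bar. HET replicates 1 and 3 are the top pair in all 4 panels (Cfd 3.74 and 4.21 CPM), and HET replicate 4 lies within or below the WT points.

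The genes of the unilocular droplet were highest in the same 2 libraries. Cidec (ENSMUSG00000030278; chromosome 6, 113424634 to 113435760, minus strand) had 24, 9, 45 and 6 counts in HET and 2, 4, 11 and 5 counts in WT, or 0.636, 0.281, 1.20 and 0.168 CPM against 0.0481, 0.101, 0.266 and 0.128 CPM. HET replicates 1, 2 and 3 were above every WT library, HET replicate 2 only by the margin of 0.281 over 0.266 CPM. Its log2 fold change of 2.06 was the highest of the 9 genes (SE 0.668, 95% interval 0.57 to 3.56), with an edgeR-adjusted p of 0.770. An exact two-sided permutation test over 4 against 4 samples, which can give no p below 0.0286, gave p = 0.0571. By the same test p was 0.143 for Adipoq, Plin1 and Klf15, 0.171 for Pparg and 0.314 for Cfd. It was 0.371 for Fabp4, 0.486 for Cebpa and 0.0571 for Lpl. Plin1 (ENSMUSG00000030546; chromosome 7, 79720218 to 79732903, minus strand) had 25, 5, 22 and 7 counts in HET and 2, 15, 3 and 6 counts in WT, or 0.662, 0.156, 0.586 and 0.197 CPM against 0.0481, 0.377, 0.0725 and 0.154 CPM. HET replicates 1 and 3 were again on top and WT replicate 2 came next. In the fit of all 8 libraries Plin1 entered only without the filter on low counts, where its log2 fold change was 1.31 (SE 0.635; edgeR, adjusted p = 0.777). Without HET replicates 1 and 3 the log2 fold changes of Adipoq and Cidec were 0.44 and 0.70, and these 2 libraries were left out because they were highest, so lower values are built into that setting.

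Summed over the 4 fat-restricted genes, the level was 5.54, 1.84, 6.77 and 0.646 CPM in HET, against 0.529, 1.41, 1.45 and 1.36 CPM in WT. The highest library was 12.8-fold above the lowest. The HET mean was 3.12 times the WT mean with all libraries, 2.26 to 3.98 times when single libraries were left out and 1.05 times without HET replicates 1 and 3, the 2 highest in this sum. Sample titles carry a run of digits of unstated meaning, and HET replicates 1, 3 and 4 share theirs with WT replicate 1 (the first digit set). Among those 4 libraries the sums were 5.54, 6.77 and 0.646 CPM in HET and 0.529 CPM in WT, and among HET replicate 2 and WT replicates 3 and 4, the second digit set, it was 1.84 CPM in HET and 1.45 and 1.36 CPM in WT. WT replicate 2 stands alone. Cfd made up 30.4% to 67.5% of the summed counts in HET and 55.4% to 72.7% in WT. Resistin (Retn), a further adipokine of mouse fat, had 5, 8, 16 and 1 counts in HET and 0, 3, 3 and 1 counts in WT, again with HET replicate 3 highest, and leptin (Lep) had 0 counts in all 8 libraries.

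Adipoq and Cidec varied together between libraries, and Cfd had similar r values that did not pass after adjustment. Over the 8 libraries Adipoq and Cidec had Pearson r = 0.95 (exact permutation p = 3.22e-04, adjusted 0.0116 over the 36 pairs of the 9 genes) and Spearman rho = 0.90 (exact permutation p = 0.00456, adjusted 0.0821). Without the 2 libraries farthest from the median of Adipoq, HET replicate 3 and WT replicate 1, r was 0.88. Adipoq and Cfd had r = 0.90 (exact permutation p = 0.00280, adjusted 0.0505), rho = 0.90 (exact permutation p = 0.00456, adjusted 0.0821) and 0.83 without those 2 libraries. Cidec and Cfd had r = 0.83 (exact permutation p = 0.0125, adjusted 0.151), rho = 0.81 (exact permutation p = 0.0218, adjusted 0.261) and 0.70 without them. Plin1 and Adipoq had r = 0.68 (exact permutation p = 0.0655, adjusted 0.393) and rho = 0.67 (exact permutation p = 0.0831, adjusted 0.453), and 0.34 without the same 2. Plin1 and Cidec had r = 0.70 (exact permutation p = 0.0539, adjusted 0.388), and 0.35 without them. All these leave-outs kept HET replicate 1. Plin1 and Cfd had r = 0.71 (exact permutation p = 0.0505, adjusted 0.388). For this pair r was 0.09 without HET replicates 1 and 3, the 2 farthest from the median of Plin1. HET and WT were pooled, so a difference between the groups enters r and its p. Each group, and each set of libraries with shared title digits, holds 4 or fewer, too few for a value within it. Of the 36 pairs 1 passed after adjustment, and no pair of a fat-restricted gene with Lpl, Fabp4, Pparg, Cebpa or Klf15 did.

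**Figure D2:**
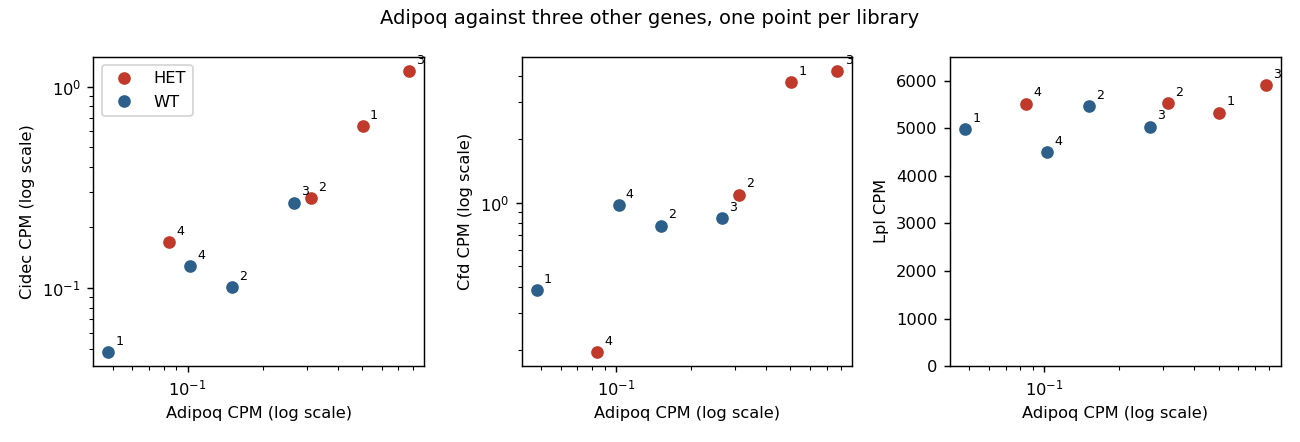
CPM of Cidec, Cfd and Lpl against CPM of Adipoq, 1 point per library, HET and WT, numbered by replicate, with log axes except for Lpl. Cidec and Cfd climb with Adipoq (r = 0.95 and 0.90 on log2 CPM), while Lpl stays between 4500 and 5897 CPM over the 16.1-fold range of Adipoq.

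Among 14559 other genes tested, the 5 whose log2 CPM followed the summed level of the 4 genes most closely over the 8 libraries were Sh2b1 (r = 0.94), Spryd4 (0.92), Car3 (0.92), Gart (0.92) and Cul9 (0.91). These r values describe likeness over 8 points, and 7 genes reached 0.9 while 14 reached -0.9 or lower. Car3, a carbonic anhydrase abundant in fat and slow skeletal muscle, was the 1 of the 5 with a range like that of the fat-restricted genes. It was at 3.02, 1.56, 4.56 and 0.533 CPM in HET, against 0.481, 1.31, 0.798 and 2.25 CPM in WT (log2 fold change 1.01, SE 0.691; edgeR, adjusted p = 0.783). The other 4 moved within narrow bounds, Sh2b1 for example from 80.4 to 91.0 CPM in HET and from 80.4 to 84.5 CPM in WT.

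Transcripts of the relatives of Plin1 and Cidec were more abundant in ventricle than those of Plin1 and Cidec themselves. Plin1 averaged 0.198 TPM, against 64.7 TPM for Plin2, 105.0 TPM for Plin3, 94.0 TPM for Plin4 and 165.4 TPM for Plin5, the perilipin of oxidative muscle. Cidec averaged 0.412 TPM, against 44.5 TPM for Cidea and 5.79 TPM for Cideb. Cidea differed little between groups, at 25.0 ± 2.45 CPM in HET, against 24.5 ± 2.88 CPM in WT (SD, n = 4 each; log2 fold change 0.03, 95% interval -0.18 to 0.24), with a sign that changed under other settings. Plin5 had 170 ± 11.7 CPM in HET and 157 ± 21.5 CPM in WT (log2 fold change 0.11, 95% interval -0.09 to 0.31). Plin2 to Plin5, Cidea, Cideb, Pnpla2 and Lipe belong to a list of 19 genes of droplet coat, droplet assembly and lipolysis. Of these 19, 19 were tested, 0 were called higher and 0 lower, 9 had positive log2 fold changes, and the median was -0.00032. The 2 of smallest p were Fitm2, which helps fat leave the endoplasmic reticulum into droplets, at 278 ± 10.8 CPM in HET, against 257 ± 13.7 CPM in WT (log2 fold change 0.11, SE 0.053), and Hsd17b11, a dehydrogenase found on droplets, at 24.57 ± 2.403 CPM in HET, against 28.62 ± 5.141 CPM in WT (-0.22, SE 0.124, and -0.14 without WT replicate 4). The lipases Pnpla2 (adipose triglyceride lipase) and Lipe (hormone-sensitive lipase), chosen after their values were seen, had log2 fold changes of -0.07 (95% interval -0.21 to 0.07) and -0.20 (95% interval -0.51 to 0.12).

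**Figure D3:**
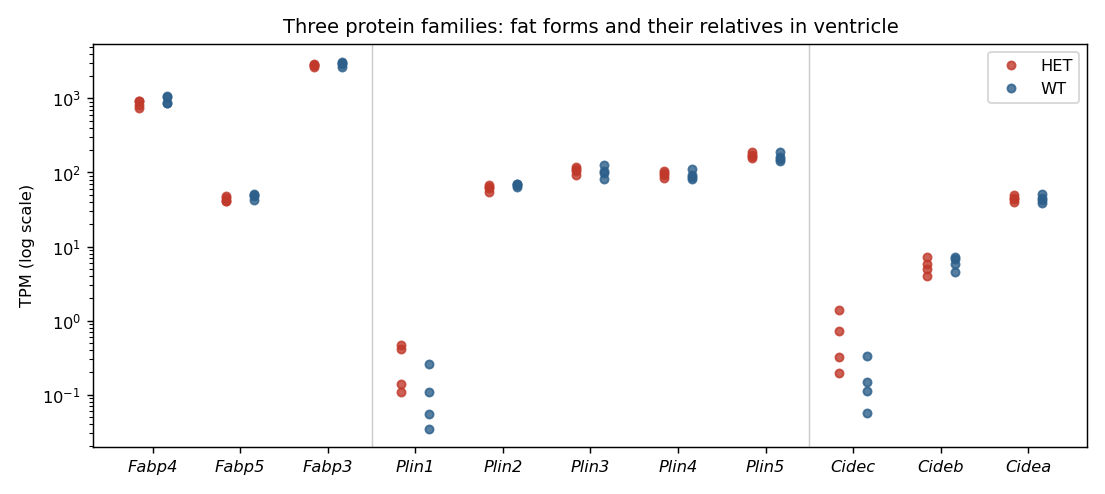
TPM on a log axis of 3 protein families in each library, HET left and WT right of each pair: fatty acid binding proteins, perilipins and CIDE proteins. The fat forms Plin1 (mean 0.198 TPM) and Cidec (0.412 TPM) lie far under Plin5 (165.4 TPM) and Cidea (44.5 TPM), and they scatter more between libraries.

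Lipoprotein lipase was the most abundant of the 9 genes and differed little between libraries. Lpl (ENSMUSG00000015568; chromosome 8, 68880491 to 68907448, plus strand) stood at 5324, 5518, 5897 and 5517 CPM in HET, against 4976, 5461, 5031 and 4500 CPM in WT. HET replicates 2, 3 and 4 lay above all WT libraries, and HET replicate 1 lay below WT replicate 2. The means were 5564 ± 240 CPM in HET and 4992 ± 393 CPM in WT (SD, n = 4 each), with a log2 fold change of 0.16 (SE 0.060, 95% interval 0.02 to 0.29). It did not pass (unadjusted p = 0.0254; edgeR, adjusted p = 0.770), and the exact permutation test over 4 against 4 samples gave p = 0.0571. The fold change was 0.14 without HET replicates 1 and 3, and within the first and the second set of title digits (defined above) the difference in mean log2 CPM was 0.16 and 0.21. The 10 cardiomyocyte genes summed to 97257 to 104350 CPM in HET and 93624 to 96746 CPM in WT, of which 8 had positive log2 fold changes (median 0.05) and 0 were called, Atp2a2 at 0.20 (SE 0.048) and Myh6 at 0.12 (SE 0.040) having the smallest p. The part of this in the Lpl difference was not tested.

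Of 12 genes of fatty acid delivery and uptake 11 were tested, 0 were called, 6 had positive log2 fold changes and the median was 0.03 (range -0.37 to 0.11). Acsl1, which activates fatty acids with coenzyme A, was at 1152 ± 47.2 CPM in HET, against 1066 ± 37.2 CPM in WT (log2 fold change 0.11, SE 0.047), and Vldlr, a lipoprotein receptor, at 425 ± 22.2 CPM in HET, against 393 ± 24.0 CPM in WT (0.11, SE 0.058). The endothelial anchor of the lipase, Gpihbp1, had -0.04 as its log2 fold change (95% interval -0.22 to 0.13). Of 21 genes of lipid synthesis 0 were called, 14 had positive values and the median was 0.03 (range -0.64 to 0.28), with the glucose transporter Slc2a4 at 0.15 (SE 0.057) and the lipogenic factor Srebf1 at -0.14 (SE 0.054) of smallest p.

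**Figure D4:**
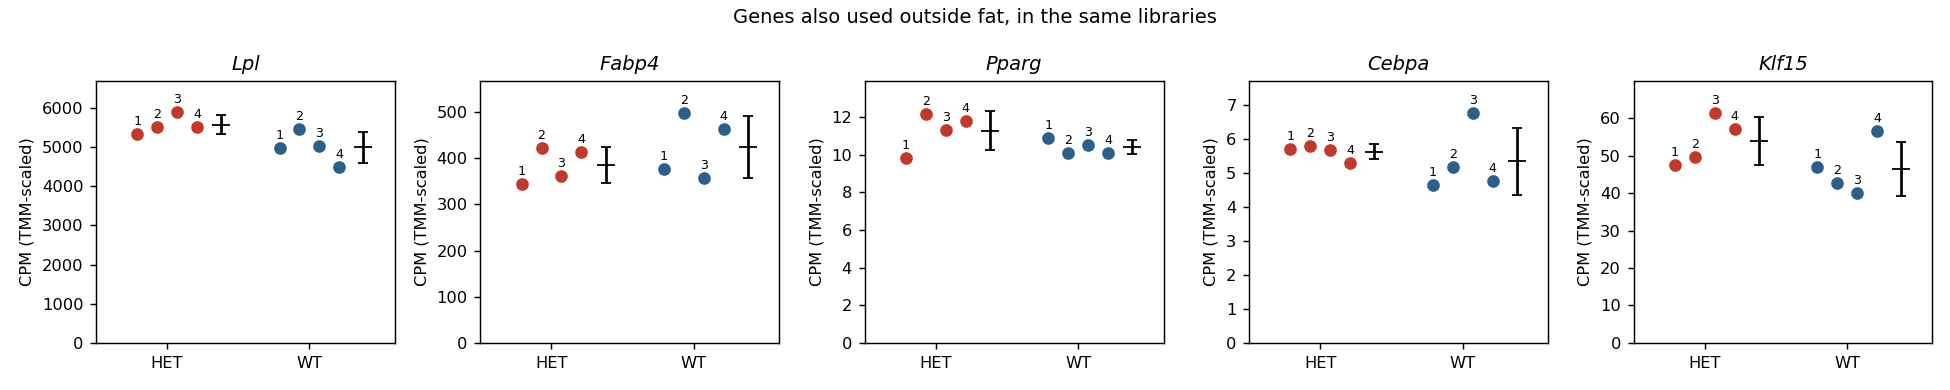
CPM of Lpl, Fabp4, Pparg, Cebpa and Klf15 in each library, HET left and WT right, numbered by replicate, with mean and SD as the black bar and axes from 0. HET and WT overlap in every panel, and HET replicates 1 and 3 are the lowest HET pair for Fabp4 (343.7 and 361.5 CPM).

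Fabp4 (ENSMUSG00000062515; chromosome 3, 10204088 to 10208576, minus strand) stood at 344, 421, 362 and 414 CPM in HET, against 377, 498, 358 and 463 CPM in WT. The groups overlapped, with WT replicates 2 and 4 on top and HET replicate 1 at the bottom. The log2 fold change was -0.14 (SE 0.114, 95% interval -0.40 to 0.12; edgeR, adjusted p = 0.808). It was -0.05 without WT replicate 2 and -0.04 with the title digits as covariate. That covariate set the first digit set against all other libraries, WT replicate 2 among them. Within the first and the second digit set the difference in mean log2 CPM was -0.02 and 0.05. HET replicates 1 and 3, which held the most Adipoq, were the 2 lowest HET libraries for Fabp4. The 10 endothelial genes summed to 1247 to 1356 CPM in HET and 1246 to 1496 CPM in WT, with 4 of 10 positive (median -0.01), 0 called, and Egfl7, a secreted endothelial factor, at -0.30 (SE 0.075) and the clotting factor gene Vwf at 0.07 (SE 0.067) of smallest p. Fabp4 equalled 25.8% to 32.1% of that sum in HET and 25.2% to 40.0% in WT. Its heart relative Fabp3, the cardiomyocyte form, averaged 2857 TPM against 905 TPM for Fabp4, with -0.02 as its log2 fold change (95% interval -0.15 to 0.10), and Fabp5 averaged 46.0 TPM.

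The master regulators of fat cell identity varied little between libraries. Pparg (ENSMUSG00000000440; chromosome 6, 115360951 to 115490399, plus strand) stood at 9.83, 12.2, 11.3 and 11.8 CPM in HET, against 10.9, 10.1, 10.5 and 10.1 CPM in WT. HET replicates 2, 3 and 4 were above all WT libraries and HET replicate 1 was below all of them, while it held the second most Adipoq. The log2 fold change was 0.11 (SE 0.082, 95% interval -0.07 to 0.30; edgeR, adjusted p = 0.783). Pparg and Adipoq had r = 0.01 (exact permutation p = 0.979, adjusted 0.979) and rho = -0.05 (exact permutation p = 0.935, adjusted 0.962) over the 8 libraries, and r = -0.17 without HET replicate 3 and WT replicate 1. Cebpa (ENSMUSG00000034957; chromosome 7, 35119293 to 35121928, plus strand, a single exon) stood at 5.72, 5.80, 5.68 and 5.31 CPM in HET, against 4.66, 5.18, 6.77 and 4.76 CPM in WT. WT replicate 3 alone exceeded the HET libraries, and without it the log2 fold change of 0.07 (SE 0.127, 95% interval -0.21 to 0.35; edgeR, adjusted p = 0.919) was 0.21. Its exon shares 51 bases with an antisense gene, Gm45091, and the strand setting of the counting is not given, so reads there cannot be assigned.

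Other factors of fat cell differentiation were not called either. Of 15 activators 14 were tested, 0 were called, 10 had positive log2 fold changes and the median was 0.10. Cebpd, an early factor of the programme that also responds to stress and glucocorticoid, was at 17.7 ± 4.14 CPM in HET, against 11.3 ± 1.06 CPM in WT (log2 fold change 0.64, SE 0.151; unadjusted p = 0.00193; edgeR, adjusted p = 0.770). Its groups did not overlap, as for 3.78% of all genes tested. The log2 fold change was 0.52 with the title digits as covariate and 0.48 without HET replicate 3. Within the first and the second digit set the difference in mean log2 CPM was 0.75 and 0.17. DESeq2 called Cebpd (adjusted p = 0.0386), the 1 call among all genes of the lists. Cebpd lies 322287 bases from Pkp2 on chromosome 16. Klf9, a glucocorticoid-responsive factor, followed at 0.18 (SE 0.059). Of 12 genes known to hold back fat cell differentiation 11 were tested, 0 were called and 7 were positive (median 0.09), with the stress factor Ddit3 at -0.50 (SE 0.246, and -0.28 without WT replicate 2) among those of smallest p.

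Klf15 (ENSMUSG00000030087; chromosome 6, 90462576 to 90475238, plus strand) stood at 47.5, 49.7, 61.3 and 57.1 CPM in HET, against 46.9, 42.7, 40.0 and 56.5 CPM in WT. All HET libraries lay above 3 of the 4 WT libraries, and WT replicate 4 lay between HET replicates 2 and 4. The log2 fold change was 0.21 (SE 0.118, 95% interval -0.05 to 0.48; edgeR, adjusted p = 0.770), and it was 0.32 without WT replicate 4 and 0.14 without WT replicate 3. Within the first and the second digit set the difference in mean log2 CPM was 0.23 and 0.06. Of 8 glucocorticoid-responsive genes 8 had positive log2 fold changes (48.5% of all genes tested did), with a median of 0.24, and 0 were called. They summed to 406.8, 308.5, 589.9 and 473 CPM in HET replicates 1 to 4, against 314.2 to 375.6 CPM in WT. HET replicate 2 was the lowest of all libraries in this sum. The 2 of smallest p, Errfi1 (0.95, SE 0.321, and 0.60 with the title digits as covariate) and Ddit4 (0.95, SE 0.418, and 0.40), inhibit EGF receptor and mTOR signalling. Of 14 genes of branched-chain amino acid breakdown, a pathway under KLF15 control in muscle, 12 were positive (median 0.05) and 0 were called, with Dld, the dehydrogenase subunit shared by several mitochondrial complexes, at 0.15 (SE 0.046) and Dbt, a subunit of the branched-chain complex, at 0.12 (SE 0.053).

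**Figure D5:**
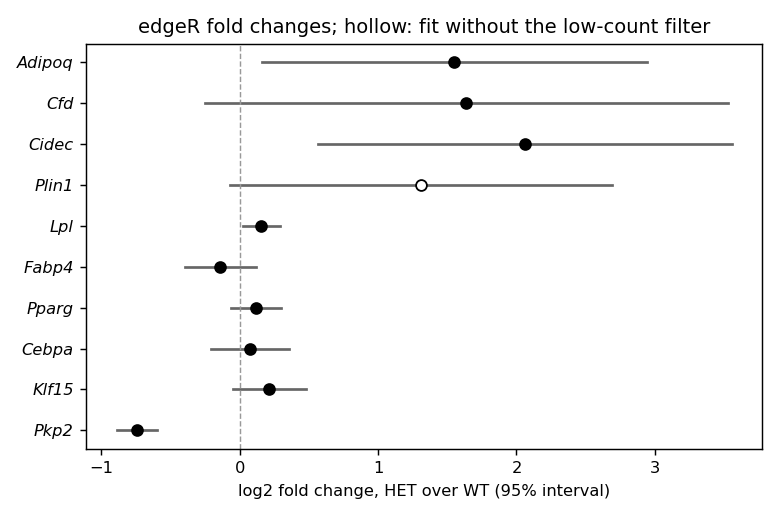
Log2 fold change, HET over WT, with 95% intervals for the 9 genes and Pkp2, from edgeR; the hollow point, Plin1, comes from the fit without the filter on low counts. The 4 fat-restricted genes have high values with wide intervals (Cidec 2.06, interval 0.57 to 3.56), the other 5 lie near 0, and Pkp2 lies at -0.74.

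Markers of other sources of fat genes gave no call. Among 9 further markers of white fat 4 were tested, 1 was positive and 0 were called (median -0.07). Of smallest p were Adig, a small adipocyte protein, at 0.24 (SE 0.235, and 0.093 without HET replicate 2) and the glycerol channel Aqp7 at -0.13 (SE 0.165, and 0.03 without HET replicates 1 and 3). Among those tested, Thrsp (47.1 TPM) and Aqp7 (26.1 TPM) were abundant in every library. Without the filter on low counts, Retn had a log2 fold change of 2.20 (SE 0.798) and Acvr1c 1.87 (SE 0.963). Adrb3 had 1.01 (SE 0.924) and Slc7a10 0.12 (SE 1.46). These rest on 0 to 16 counts per library, and edgeR-adjusted p ran from 0.777 to 0.983. Of 8 markers of brown fat 4 were tested, 4 were positive (median 0.02; Cidea turned negative with library-size scaling) and 0 were called, with Prdm16 at 0.25 (SE 0.120, and 0.14 without WT replicate 4) of smallest p, and the defining gene Ucp1 had 0 to 1 counts in HET and 0 to 4 in WT. Fibroblast and preadipocyte genes summed to 967 to 1183 CPM in HET and 1106 to 1228 CPM in WT (2 of 10 positive, median -0.09, 0 called, Cd34 at -0.15, SE 0.082, or -0.096 without HET replicate 3, and Ly6a at -0.32, SE 0.196, or -0.088 without WT replicate 3). Macrophage genes summed to 335 to 394 CPM in HET and 344 to 490 CPM in WT (1 of 8 positive, median -0.06, 0 called, Cd68 at -0.41, SE 0.129, and C1qb at -0.25, SE 0.189). WT replicate 3 held the highest macrophage sum, and without it Cd68 was at -0.26 and C1qb at -0.025. Mural cell genes summed to 1297 to 1414 CPM in HET and 1269 to 1439 CPM in WT (3 of 7 positive, median -0.07, 0 called, Kcnj8 at -0.23, SE 0.064, and Cspg4 at -0.18, SE 0.097, or -0.11 without WT replicate 1). The epicardial and mesothelial list had 3 tested genes of 9 in the table (2 positive, median 0.07, 0 called, Tcf21 at -0.13, SE 0.138, and Wt1 at 0.10, SE 0.219), and the atrial list 3 of 6 (0 positive, median -0.11, 0 called, Myl4 at -0.49, SE 0.204, or -0.32 without WT replicate 2, and Stard10 at -0.11, SE 0.095). The part of any of these in the values of the fat-restricted genes was not tested.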

How the data were processed

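Poly(A)-selected, stranded libraries of mouse ventricle were sequenced, per the labels' protocols. The deposited values are whole-number read counts per Ensembl gene, not normalized by the authors. STAR 2.4.2a, HTSeq 0.6.1 and GRCm38/mm10 are named per the submitters' processing notes, and the annotation release and strand setting are not given in the sources used here. Groups followed the genotype label. Replicates were numbered in order of deposition and pair nothing. Symbols were matched by identifier (36345 of 38293 genes), with positions and transcript lengths from GENCODE M21 (GRCm38). Counts were tested with edgeR 4.0.16 in R 4.3.3 (TMM scaling, filterByExpr, robust quasi-likelihood fit, Benjamini-Hochberg over 14567 genes, threshold 0.05). Relations used log2 CPM with a prior count of 2. DESeq2 1.42.0 and limma 3.58.1 (voom) were alternatives. As covariate, the title digits split the libraries into the first digit set and all others. The test was checked on simulated data, where it found few of the 1.5-fold and 2-fold changes set in genes under 1 CPM. Adipoq, Cidec and Plin1 averaged under 1 CPM in both groups. The fat genes, lists and tests were chosen with earlier results of these data known. Named genes are the 9, Pkp2, in each list the called members or otherwise the 2 of smallest p, and the 5 genes most like the summed level. Family relatives, Gpihbp1, the lipases, Retn, Lep, Ucp1, Sln, Myl7 and Nppa were named outside this rule, after their values were seen. One gene that the rule names is not reported here. Intervals on counts cover counting error only.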

Additional observations from a re-analysis of the deposited data

Results flagged for a closer look

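Of 20 groups of 4 libraries checked for a sample far from the others, 1 held such a sample, and chance gives about 1 in 20. The summed level of Adipoq, Cidec, Plin1 and Cfd was 0.529 CPM in WT replicate 1, below 1.36 to 1.45 CPM in the other 3 WT libraries. The gap was 89.9% of the range of the group. HET replicates 1 and 3 (5.54 and 6.77 CPM) did not stand apart by this measure, since each lay near the other.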

How the results depend on the processing

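None of the 9 genes was called in any of the 18 fits that gave it an adjusted p; DESeq2 gave none to Adipoq and Cidec. The number of genes called higher in HET was 0 and the number called lower was 1, against 7 and 7 with DESeq2 and 2 lower without the filter. Leaving out 1 library gave 1 to 3 genes lower, the 3 without HET replicate 3. The 9 genes kept their direction under every planned setting that tested them. Without HET replicates 1 and 3, a setting chosen after seeing the data, Cfd reversed to -0.23, Aqp7 to 0.029, Tcf21 to 0.055 and Stard10 to 0.025, and Pkp2 had -0.75 with an edgeR-adjusted p of 0.278. Cidea reversed to -0.013 with library-size scaling and to -0.014 with limma-voom and ran from -0.037 to 0.12 when single libraries were left out. Wt1 ran from -0.088 to 0.28 in those fits, and Stard10 was 0.0010 with the title digits as covariate. For the summed level of Adipoq, Cidec, Plin1 and Cfd the HET mean was 3.01 times the WT mean with library-size scaling and 2.26 to 3.98 times when single libraries were left out. The cause of these shifts was not tested. No paired analysis was possible because the labels give no replicate numbers that tie HET to WT samples. Counts of 2 to 45 reads limit Adipoq, Cidec and Plin1.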

Other observations

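Angptl4, an inhibitor of lipoprotein lipase induced by fasting, varied 6.59-fold between libraries, with groups that overlapped, at 206, 1089, 335 and 987 counts in HET and 1305, 426, 830 and 1405 counts in WT (edgeR, adjusted p = 0.925). HET replicates 1 and 3, the libraries highest in Adipoq, were the 2 lowest for Angptl4. Thrsp, a lipogenic gene of fat and liver, had 972, 737, 737 and 1800 counts in HET and 1056, 851, 1102 and 1832 counts in WT. These genes were chosen after their values were seen.

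Other libraries held traces of other genes. WT replicate 4 held 94 counts of Pck1, 13 of Elovl3, 6 of Angptl8 and 4 of Ucp1, against 8 to 27, 0 to 3, 0 to 1 and 0 to 1 in the other 7 libraries, while its Adipoq was 4 counts. HET replicate 4 held 8 counts of Msln, 5 of Lrrn4 and 4 of Upk3b, genes of the mesothelium, against 0, 0 to 1 and 0 to 2 in the other 7. The whole epicardial and mesothelial list, from which these were picked, did not single out HET replicate 4. It summed to 15.83 CPM there, within 13.73 to 16.66 CPM in HET and 13.88 to 16.29 CPM in WT. The source of the reads of the genes named here was not tested.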
